A study of Mus musculus with 4 samples.

Results

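The synaptic adhesion genes described here are 2 neurexins (Nrxn2 and Nrxn3), 3 neuroligins (Nlgn1, Nlgn2 and Nlgn3) and the 3 receptor tyrosine phosphatases of the LAR family (Ptprf, which encodes LAR itself, Ptprs and Ptprd). They were taken by gene symbol, as genes known to be controlled through alternative exons and microexons, with earlier results of these data known. They make up 8 of the 22667 genes in the deposited expression table, and 109 of the 91656 events in the deposited splicing tables belong to them. N2a cells, a clonal mouse neuroblastoma line, received either an siRNA without a target (siControl) or an siRNA to Arglu1 (siArglu1), and 48 h later were given vehicle (ethanol, Veh) or 100 nM of the synthetic glucocorticoid dexamethasone (Dex) for 4 h. Each of the 4 groups is a pool of RNA from 3 cultures (siControl with Veh, siControl with Dex, siArglu1 with Veh, siArglu1 with Dex, the order in which values of the libraries are given below), so that there is 1 library per group, no spread between replicates, and no test between any pair of libraries. Knockdown in vehicle and knockdown in Dex share no library, which makes the latter a separate look at the same knockdown. ARGLU1 is a nuclear protein studied as a coactivator of the glucocorticoid receptor and as a regulator of alternative splicing, and the libraries were made to ask how its loss alters expression and splicing with and without glucocorticoid.

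Neurexins and LAR phosphatases sit mostly on the presynaptic membrane and neuroligins on the postsynaptic one, and their extracellular parts bind partners across the synaptic cleft. Short in-frame exons decide much of this binding. The exon at splice site 4 of the neurexins changes the choice between neuroligins and other ligands, and the exons at site A of the neuroligins can affect their binding. Microexons in the immunoglobulin-like part of the LAR phosphatases affect which postsynaptic partner fits. The extracellular part of a LAR phosphatase also carries a row of fibronectin type III repeats, of which shorter forms lack some.

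The exons on which the splicing results turn were matched to GENCODE M21, on the GRCm38 build, by gene, exon length and the lengths of the neighbouring introns. Of 74 listed cassette exons of the 8 genes, 43 were matched by both introns and 13 by 1 intron. The sequences below run 5′ to 3′ along the mRNA, with bases of the exon in capitals and those of the neighbouring exons in lower case. The first set shows, for each gene with an exon past 15 PSI in a knockdown pair, the exon with the largest such difference, which are a 579-nt exon of Ptprf (chr4:118225799-118226377, minus strand, matched by both introns), a 194-nt exon of Ptprs (chr17:56427939-56428132, minus strand, matched by 1 intron), both by their first and last 60 bases, and a 69-nt exon of Nrxn2 (chr19:6450531-6450599, plus strand).
Ptprf 579-nt exon, start: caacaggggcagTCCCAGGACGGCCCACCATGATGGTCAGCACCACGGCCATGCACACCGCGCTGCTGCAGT
Ptprf 579-nt exon, end: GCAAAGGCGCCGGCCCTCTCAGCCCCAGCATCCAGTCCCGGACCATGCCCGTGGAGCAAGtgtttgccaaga
Ptprs 194-nt exon, start: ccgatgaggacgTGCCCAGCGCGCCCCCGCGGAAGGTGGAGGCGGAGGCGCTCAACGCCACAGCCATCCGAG
Ptprs 194-nt exon, end: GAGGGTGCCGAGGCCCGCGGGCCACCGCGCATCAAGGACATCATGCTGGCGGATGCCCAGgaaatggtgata
Nrxn2 69-nt exon: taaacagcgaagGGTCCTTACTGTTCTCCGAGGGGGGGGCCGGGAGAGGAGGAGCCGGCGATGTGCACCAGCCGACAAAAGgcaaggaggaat
The next set shows other short exons whose inclusion is described below, with those at splice site 4 and site A first. These are the splice site 4 exon of Nrxn3 (chr12:90199147-90199236, plus strand), the site A exon of Nlgn2 (chr11:69830563-69830613, minus strand), the 27-nt exons of Ptprf (chr4:118227819-118227845, minus strand) and Ptprs (chr17:56427791-56427817, minus strand), and a 12-nt microexon of Ptprs (chr17:56421833-56421844, minus strand).
Nrxn3 90-nt exon: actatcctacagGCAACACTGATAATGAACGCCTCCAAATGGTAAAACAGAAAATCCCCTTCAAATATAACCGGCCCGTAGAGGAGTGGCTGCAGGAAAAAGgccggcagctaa
Nlgn2 51-nt exon: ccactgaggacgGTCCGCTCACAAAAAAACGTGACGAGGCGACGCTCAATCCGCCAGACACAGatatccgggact
Ptprf 27-nt exon: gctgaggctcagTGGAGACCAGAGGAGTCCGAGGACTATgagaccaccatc
Ptprs 27-nt exon: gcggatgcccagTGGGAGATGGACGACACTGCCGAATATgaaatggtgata
Ptprs 12-nt microexon: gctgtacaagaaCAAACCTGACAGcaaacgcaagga
All of these exons but the 69-nt exon of Nrxn2 lie whole within the coding part of an annotated transcript, and all but the 194-nt exon of Ptprs have a length divisible by 3 and keep the reading frame. The Nrxn2 exon is shown in the shorter of its listed forms, and the longer form is described below. The 579-nt exon of Ptprf has counterparts of 600 nt in Ptprs and 588 nt in Ptprd, as judged from their place and length, and in a global alignment shared 350 of 619 aligned columns (56.5%) with the former and 358 of 594 (60.3%) with the latter. The Ptprs counterpart is the richer in G and C, at 76.3% of its bases against 59.2% in Ptprf.

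Reads on genes came to between 66074574 and 86541444 per library. The reads of Arglu1 itself were 10165 (Veh) and 11825 (Dex) with siControl against 2637 (Veh) and 3254 (Dex) with siArglu1, so that the knockdown left 26.3% of its level in vehicle and 22.5% in Dex. Of 15 markers of sympathetic neuroblasts, 12 had a cRPKM of at least 1 in some library, and among those that did not were Nefm and Nefl, at or under 0.03. The summed level of the list was 1419 and 1351 cRPKM in the siControl libraries against 2031 and 1914 in the siArglu1 libraries. Most of that sum came from Tubb3, Stmn2, Hand2 and Gap43. Th (2.58 and 4.71 against 1.05 and 2.54) and Ddc (5.71 and 6.22 against 5.0 and 5.11) went the other way. The summed levels of astrocyte markers (at most 0.1 cRPKM) and of microglia and macrophage markers (at most 0.71) were near 0. Of 8 fibroblast and mesenchyme markers 1, Fn1, reached a cRPKM of 1, and the sum of the list was between 38.1 and 40.4 in 3 libraries and 52.3 in siArglu1 Dex. Of 7 oligodendrocyte and Schwann cell markers 2 did, Mbp and Pmp22, and the sum, nearly all from Pmp22, was 73.6 and 101.8 cRPKM with siControl against 125.2 and 152.5 with siArglu1. The summed level of 7 smooth muscle markers, of which 6 reached a cRPKM of 1, moved with the knockdown, from between 11.38 and 11.45 cRPKM in the siControl libraries to 200.2 in siArglu1 Veh and 184.4 in siArglu1 Dex. Nearly all of that rise came from Myl9 (3.84 and 4.28 against 94.27 and 87.78), Acta2 (3.85 and 3.55 against 77.38 and 69.87) and Actg2 (1.13 and 0.94 against 24.38 and 22.94). Des was lower in the siArglu1 libraries (1.74 and 1.74 against 1.5 and 1.47). None of the marker lists held a gene without a read in all libraries. The part of these genes in the results below was not tested.

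Expression was compared by reads per gene, scaled between libraries, with a threshold of 0.81 on the log2 scale for knockdown and of 1 for Dex. Among the genes with at least 75 reads over the 4 libraries, 12497 in all, 15.8% passed the threshold in either direction for knockdown in vehicle, 12.1% for knockdown in Dex, 0.464% for Dex in siControl and 0.392% for Dex in siArglu1. Of the 8 adhesion genes, 6 had enough reads to be compared. Nrxn3 passed the threshold in both knockdown pairs, where it was lower, and the other 5 did not pass it in either pair. No member passed the threshold for Dex in either pair. Levels below are in cRPKM, reads corrected by the authors for library size and for the kilobases of a gene to which reads can be mapped, when genes are set beside each other, and intervals of ratios are exact 95% intervals that cover counting error only.

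Among the neurexins, Nrxn2 was the abundant gene in these cells. Its level was 7.12 cRPKM in Veh and 6.23 in Dex with siControl, and 7.13 in Veh and 7.88 in Dex with siArglu1, from 2947, 2779, 2976 and 4271 reads. The level was alike in both vehicle libraries, lowest in siControl Dex and highest in siArglu1 Dex. On the log2 scale, the ratio of siArglu1 over siControl was 0.04 (interval -0.04 to 0.11) in vehicle and 0.33 (0.26 to 0.40) in Dex. Nrxn3, which encodes the neurexin with the lower level here, was read 144 times (Veh) and 126 times (Dex) with siControl against 23 (Veh) and 37 (Dex) with siArglu1. Its levels in the same order were 0.48, 0.39, 0.08 and 0.09 cRPKM, so that both knockdown libraries lay well below both control libraries. The log2 ratio was -2.58 (-3.33 to -1.98) in vehicle and -2.02 (-2.63 to -1.52) in Dex, which leaves 16.2% and 24.0% of the control level. Neither interval reaches the threshold of -0.81. In RNA of whole cultures, fewer cells that express a gene and less of its RNA per cell cannot be told apart.

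Of the neuroligins, the postsynaptic partners, only Nlgn2, known from inhibitory synapses, was read at depth. It had 2893 reads in Veh and 2912 in Dex with siControl, and 1961 in Veh and 2776 in Dex with siArglu1, or 8.84, 8.25, 5.94 and 6.47 cRPKM. Both siArglu1 libraries were lower than both siControl libraries. The log2 ratio was -0.54 (-0.62 to -0.46) in vehicle and -0.36 (-0.43 to -0.28) in Dex, or 68.8% and 78.0% of the control level, short of the threshold in both. Nlgn3, found at excitatory and inhibitory synapses, had 81, 65, 56 and 78 reads, which is at most 0.15 cRPKM. Its log2 ratio was -0.50 (-1.03 to -0.001) in vehicle and -0.03 (-0.52 to 0.47) in Dex, a range too wide to tell a fall from no change in the Dex pair. Nlgn1, the neuroligin of excitatory synapses, had between 1 and 6 reads per library and was not compared.

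**Figure D1:**
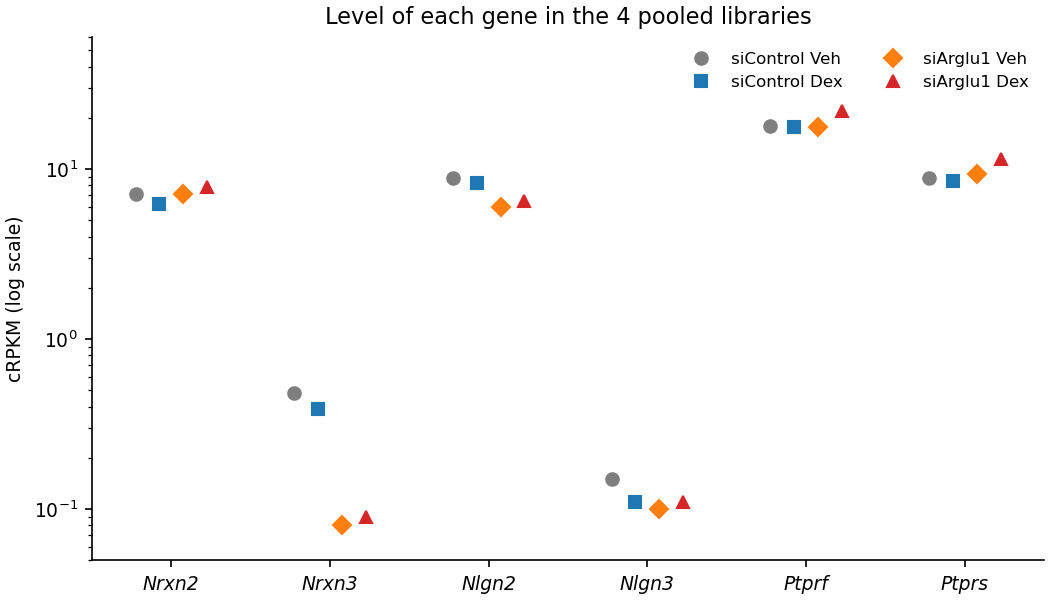
Level of the 6 adhesion genes with at least 75 reads in the 4 pooled libraries, in cRPKM on a log axis, with 1 point per library and no error bar because there is 1 library per group. Nrxn3 is the gene whose siArglu1 points (0.08 and 0.09) lie farthest from its siControl points (0.48 and 0.39). Ptprf is the most abundant, between 17.6 and 22.0.

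The LAR phosphatases were the most abundant of the 3 families, with Ptprf at 17.84 cRPKM in Veh and 17.62 in Dex with siControl, and 17.64 in Veh and 22.01 in Dex with siArglu1. These values come from 8967, 9545, 8938 and 14491 reads. The first 3 libraries lay close together and siArglu1 Dex stood above them. Ptprs, which binds heparan sulfate and chondroitin sulfate proteoglycans as well as synaptic partners, was lower in level and was likewise highest in siArglu1 Dex. Its level was 8.88, 8.49, 9.33 and 11.46 cRPKM, from 3993, 4117, 4230 and 6749 reads. The log2 ratio for knockdown was 0.02 (-0.02 to 0.06) in vehicle and 0.31 (0.28 to 0.35) in Dex for Ptprf, and 0.11 (0.04 to 0.17) and 0.42 (0.37 to 0.48) for Ptprs. Ptprd had 1 read in siControl Veh and none in the other libraries, where a count of 0 allows up to 3 reads, so no ratio is given. Of the summed cRPKM of the family, Ptprf made up between 65.4% and 67.5% in each library, with almost all of the rest from Ptprs. In siControl Veh the order of all levels per length was Ptprf (17.84 cRPKM), Ptprs (8.88), Nlgn2 (8.84), Nrxn2 (7.12), Nrxn3 (0.48) and Nlgn3 (0.15), with Nlgn1 and Ptprd at 0.00. With no spread between replicates to set beside them, Ptprs and Nlgn2 cannot be ranked. In both siArglu1 libraries the listed level of Nrxn2 was above that of Nlgn2. Nrxn3 (0.08 and 0.09 cRPKM there) and Nlgn3 (0.10 and 0.11) lay too close, at few reads, to be ranked.

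**Figure D2:**
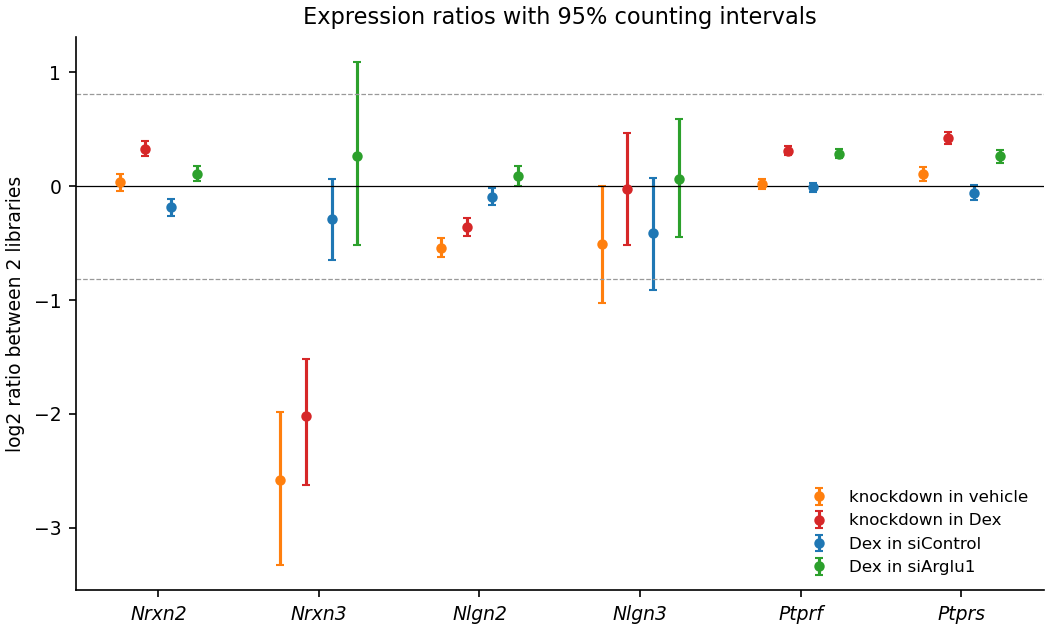
Log2 ratio between 2 libraries for the 6 compared genes, with exact 95% intervals that cover counting error only. Dashed lines mark 0.81 in either direction, the threshold for knockdown, which Nrxn3 passes in both knockdown pairs (-2.58 and -2.02).

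A quasi-likelihood model in edgeR with additive terms for siRNA and Dex, fitted to all genes with 1 residual degree of freedom, takes the Dex and vehicle pairs as repeats of the knockdown. It called 61.6% of all genes compared at a Benjamini-Hochberg adjusted p of 0.05, and 3 of the 6 adhesion genes. Nrxn3 was lower in both pairs (log2 change -2.31, edgeR adjusted p of 1.47e-23) and so was Nlgn2 (-0.45, edgeR adjusted p of 2.99e-06), whereas Ptprs was higher in both (0.27, edgeR adjusted p of 0.00466). For Nrxn2 the log2 change was 0.18 (edgeR adjusted p of 0.0592), for Ptprf 0.17 (edgeR adjusted p of 0.0807) and for Nlgn3 -0.26 (edgeR adjusted p of 0.284). A share of 3 in 6 is no larger than the background. The cultures behind the libraries were pooled, so these values rest on how alike the 2 pairs are and not on replicates.

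Transcript length moved with these ratios. The members are long, between the percentiles 80.4 and 96.8 of mappable length among the genes compared. Across genes, which are not independent replicates, Spearman's rho of the log2 ratio on length was -0.40 for knockdown in vehicle, -0.23 for knockdown in Dex, -0.16 for Dex in siControl and 0.54 for Dex in siArglu1. With the trend on length removed, the knockdown ratio of Ptprf was 0.45 in vehicle and 0.53 in Dex, that of Ptprs 0.49 and 0.61, that of Nrxn2 0.38 and 0.50, that of Nlgn2 -0.29 and -0.24, and that of Nlgn3 -0.04 and 0.20. Nrxn3 stayed at -2.37 and -1.93. On that scale Ptprf, Ptprs and Nrxn2 were thus higher in siArglu1 in both pairs, and the pairs were closer to each other, while Nrxn3 was the lowest of the 6 under both scalings. The part of length in these ratios was not tested further.

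Dex ratios of the members were small. In siControl cells the log2 ratio of Dex over Veh was -0.18 (-0.26 to -0.11) for Nrxn2, -0.09 (-0.16 to -0.02) for Nlgn2, -0.01 (-0.05 to 0.03) for Ptprf and -0.06 (-0.12 to 0.01) for Ptprs. In siArglu1 cells it was 0.11 (0.04 to 0.18) for Nrxn2, 0.09 (0.01 to 0.17) for Nlgn2, 0.29 (0.25 to 0.32) for Ptprf and 0.26 (0.21 to 0.32) for Ptprs. With the trend on length removed, these siArglu1 ratios were smaller, at -0.03 for Nrxn2, -0.01 for Nlgn2, 0.109 for Ptprf and 0.106 for Ptprs. None came near the threshold of 1. For Nrxn3 and Nlgn3 the intervals included 0 in both pairs.

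Splicing was described by the percent spliced in (PSI), the share of a gene's transcripts with the exon or splice site in question. An event was compared where it had a PSI in all 4 libraries and a coverage score that was at least LOW in 3 of them, and a difference of at least 15 PSI was the threshold. Among the 57183 events compared, 1.96% passed it for knockdown in vehicle, 1.52% for knockdown in Dex, 0.719% for Dex in siControl and 0.948% for Dex in siArglu1. Of the 109 events of the adhesion genes, 59 could be compared, which were 28 of Ptprs, 23 of Ptprf, 7 of Nrxn2 and 1 of Nlgn2. None of the events of Nrxn3, Nlgn1, Nlgn3 and Ptprd had enough reads. Of the 59, 4 passed for knockdown in vehicle (1 higher and 3 lower), 3 for knockdown in Dex (1 higher and 2 lower), 1 for Dex in siControl and 1 for Dex in siArglu1. An exon of Ptprf and an exon of Ptprs passed in the same direction in both knockdown pairs, against 0.547% of all events. At the other end, 52 of the 59 events differed by less than 5 PSI for knockdown in vehicle and 51 for knockdown in Dex.

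The 579-nt exon of Ptprf was the best covered of the events that moved. It lies at chr4:117898404-117898982 on the mm9 build of the splicing tables, in the part of the gene that encodes fibronectin type III repeats. Its PSI was 76.7 in Veh and 72.1 in Dex with siControl, and 95.6 in Veh and 97.2 in Dex with siArglu1. Both knockdown libraries thus included the exon in nearly all transcripts, and both control libraries skipped it in a larger share. The difference was 18.9 PSI in vehicle and 25.02 in Dex. The score was SOK in all 4 libraries, which in the tables that print reads means 100 junction reads or more. At 100 reads the exact binomial 95% intervals would be 67.5 to 84.8, 62.1 to 80.5, 90.1 to 98.9 and 91.5 to 99.4, and those of the knockdown and control libraries do not overlap. The difference of Dex minus Veh was -4.5 PSI in siControl cells and 1.6 in siArglu1 cells, short of the threshold.

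The exons of Ptprf around it did not pass the threshold. The 27-nt exon just upstream, printed above, was included at 99.3, 99.1, 100 and 94.9 PSI in the same order of libraries. A 12-nt microexon downstream was at 0, 0, 2.39 and 0, and another of 12 nt, upstream, was at 1.59, 6.40, 0 and 1.07. A 33-nt exon in the 3′ part of the gene stayed at or under 3.86 PSI and an 18-nt exon at 0 in all libraries. The 306-nt, 145-nt and 270-nt exons were between 96.2 and 100. N2a cells thus made Ptprf mostly with its 27-nt exon and mostly without its microexons in every library, and the 579-nt exon was the 1 cassette exon of 9 with an inclusion that moved past the threshold. None of the 14 alternative 3′ or 5′ splice site events of Ptprf differed by more than 5.22 PSI in any pair.

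In Ptprs the exons that moved were clustered in the corresponding part of the gene, and moved the other way. The 194-nt exon (chr17:56567362-56567555, mm9) had a PSI of 75.8 in Veh and 91.0 in Dex with siControl, and 52.9 in Veh and 65.4 in Dex with siArglu1. Both knockdown libraries were lower than both control libraries, by 22.9 PSI in vehicle and 25.6 in Dex. Its coverage scores were lower than those of the Ptprf exon, with OK in 3 libraries and VLOW in siArglu1 Veh. In the tables that print reads these scores mean 40 to 99 and 10 to 19 junction reads. Whether the same ranges hold for cassette exons was not tested. At the fewest of those reads the intervals would be 58.8 to 87.3, 76.3 to 97.2, 18.7 to 81.3 and 48.3 to 79.4. The control and knockdown intervals overlap widely in vehicle, where a difference of this size is not firm at that depth. In Dex they overlap only between 76.3 and 79.4. Overlap by itself is no test of a difference, and none was run. The exon was also the event that Dex moved past the threshold in siControl cells, by 15.1 PSI upward, and in siArglu1 cells the difference was 12.5, short of the threshold.

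Its neighbours pointed the same way by smaller steps. A 145-nt exon upstream was at 100 PSI in both control libraries, 82.6 in siArglu1 Veh and 93.7 in siArglu1 Dex, a difference of -17.4 PSI in vehicle, past the threshold, and of -6.35 in Dex. A 69-nt exon downstream was at 85.0, 92.3, 69.4 and 82.5, a difference of -15.7 PSI in vehicle, past the threshold, and of -9.74 in Dex. The 27-nt exon between them was at 72.9, 75.9, 64.6 and 68.6, differences of -8.30 and -7.27 that did not pass the threshold. Coverage of the 69-nt exon was only LOW in siArglu1 Veh. At the fewest reads of the scores its vehicle intervals would be 70.2 to 94.3 (siControl) and 45.7 to 88.1 (siArglu1), which overlap. Neither the 145-nt nor the 69-nt exon remained past the threshold where a score of at least OK was asked of every library. The tables list the 194-nt, 27-nt, 69-nt and 600-nt exons with the same downstream exon, and the skipping junctions they are counted against end there, so that these values are not independent of each other. They also belong to complex events. Without events scored as complex or unbalanced, the Ptprf exon remained as the 1 event past the threshold in each knockdown pair.

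The 600-nt exon of Ptprs, the counterpart of the 579-nt exon of Ptprf, was named after its values were seen. Its PSI was 61.0 in Veh and 55.3 in Dex with siControl, and 56.3 in Veh and 53.7 in Dex with siArglu1. It was thus skipped in a large share of transcripts in every library, and the difference for knockdown was -4.73 PSI in vehicle and -1.57 in Dex, short of the threshold, while its relative in Ptprf went up. The difference between these relatives was not tested, since there is 1 library per group.

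**Figure D3:**
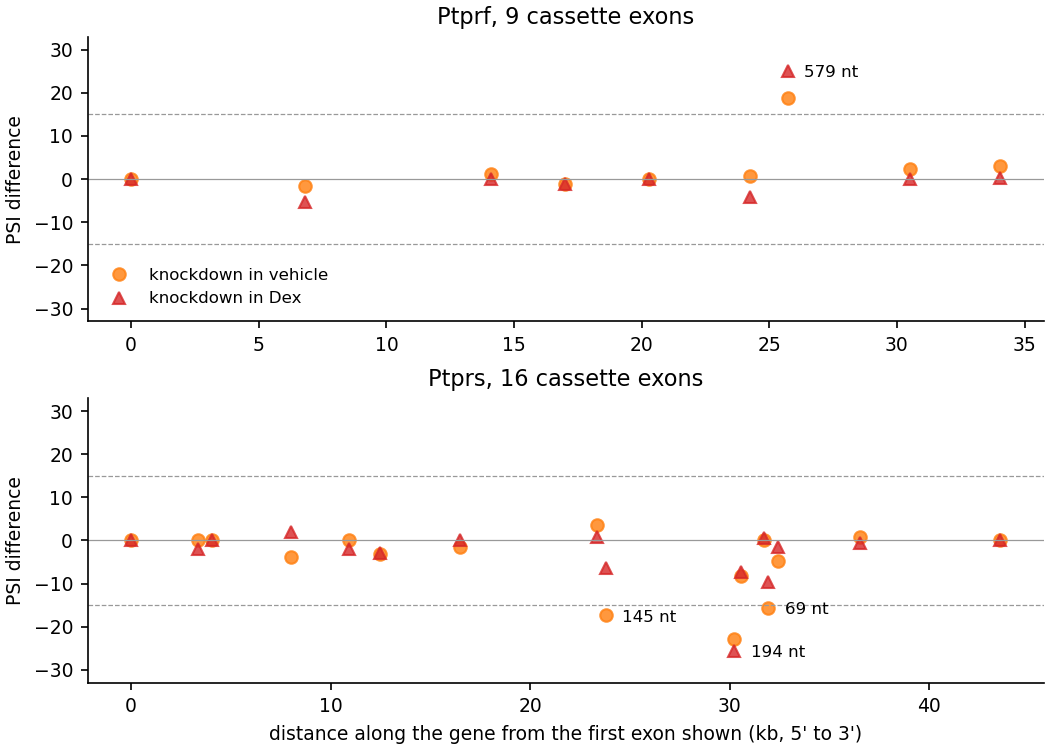
PSI difference of siArglu1 minus siControl for the comparable cassette exons of Ptprf (9) and Ptprs (16), placed by their distance in kb from the first exon shown, 5′ to 3′, with dashed lines at 15 PSI in either direction. In Ptprf the 579-nt exon alone rose past the line (18.9 and 25.02), and in Ptprs the exons past the line (145, 194 and 69 nt) all fell and lie in the same stretch of the gene.

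Microexons of Ptprs were at the ends of the range. The 12-nt microexon printed above, which lies 3′ of the 600-nt exon, was at 99.1, 100, 100 and 99.5 PSI. A second 12-nt microexon, nearer the 5′ end, was at 3.20, 2.89, 0 and 0, and a 9-nt microexon upstream of it at 3.92, 7.84, 0 and 9.83. Of the 5 comparable microexons of the members, in Ptprf and Ptprs, none passed 15 PSI in any pair. Among all 298 comparable microexons, 11.1% passed for knockdown in vehicle and 11.7% for knockdown in Dex, so that 5 are too few to set apart from the rest. An alternative 3′ splice site on the exon listed with 69 nt lengthens it by 49 nt, and was used at 90.2 PSI (41 junction reads), 78.3 (23 reads), 100 (22 reads) and 84.6 (52 reads). It was the event that passed for Dex in siArglu1 cells, lower by 15.4 PSI, and it was lower by 11.98 after Dex in siControl cells, at few reads. Most transcripts with this exon thus carried the longer form in each library.

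**Figure D4:**
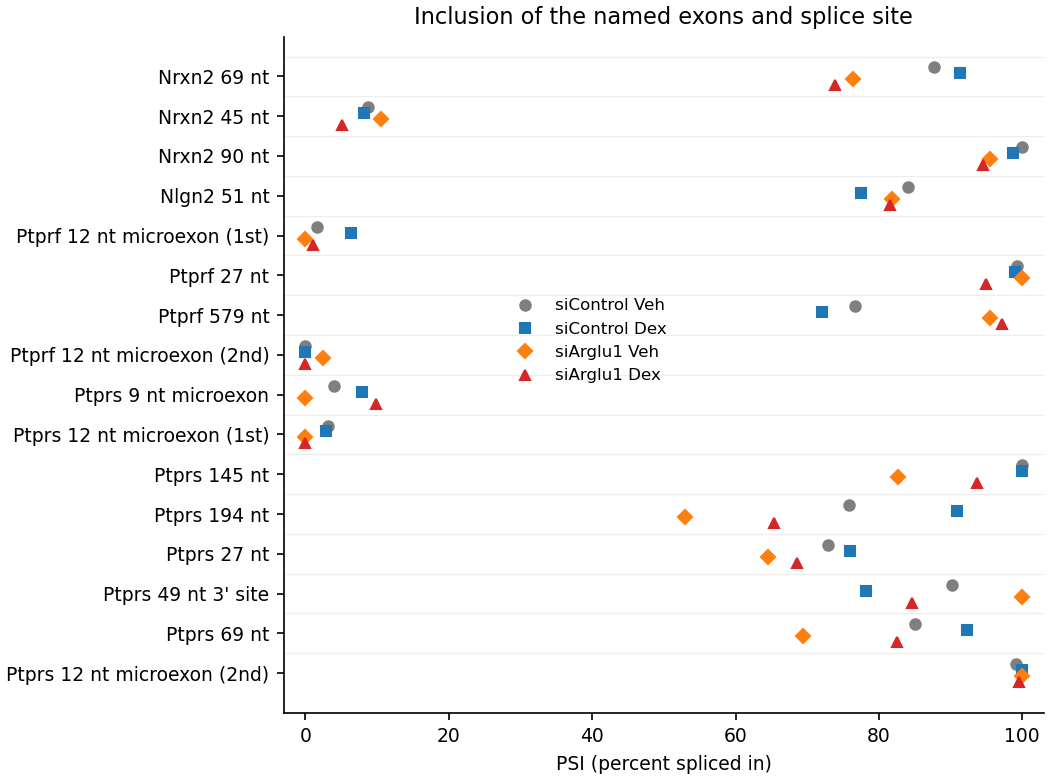
PSI of the 16 events (exons and a splice site) of Nrxn2, Nlgn2, Ptprf and Ptprs that met the naming rule, in the 4 pooled libraries, with exons in 5′ to 3′ order within a gene and no error bar because there is 1 library per group. The siArglu1 points lie right of the siControl points for the 579-nt exon of Ptprf (95.6 and 97.2 against 76.7 and 72.1) and left of them for the 194-nt exon of Ptprs (52.9 and 65.4 against 75.8 and 91.0) and the 69-nt exon of Nrxn2 (76.4 and 73.9 against 87.7 and 91.3).

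In Nrxn2, the 69-nt exon near the 5′ end of the gene was included at 87.7 PSI in Veh and 91.3 in Dex with siControl, and 76.4 in Veh and 73.9 in Dex with siArglu1. Both knockdown libraries were lower than both control libraries. The difference was -11.3 PSI in vehicle, short of the threshold, and -17.4 in Dex, past it. Scores were LOW (20 to 39 reads in the tables that print them) in the first 3 libraries and SOK in siArglu1 Dex. At the fewest reads of those scores the intervals would be 68.3 to 98.8 in both control libraries, 50.9 to 91.3 in siArglu1 Veh and 64.3 to 82.3 in siArglu1 Dex, which overlap in both pairs, and the event is among those scored as complex or unbalanced. The exon at splice site 4, of 90 nt, was at 100, 98.8, 95.6 and 94.6 PSI with SOK in all libraries. It was included in nearly all Nrxn2 transcripts, with a difference of -4.44 PSI in vehicle and -4.17 in Dex. At 100 reads the lowest bound of a control library would be 94.6 and the highest of a knockdown library 98.9. The intervals thus overlap, and this difference is not firm at that depth. A 45-nt exon was mostly skipped, at 8.79, 8.16, 10.5 and 5.04. Among the events of Nrxn2 that missed the coverage rule was a 3′ splice site that lengthens the 69-nt exon by 3 nt. The longer form had PSI of 67.7, 75.7, 100 and 89.7, from 14 junction reads in each library. It was thus the more used form at these few reads, and the sequence printed above is the shorter form. Also short of the rule was a 27-nt exon with the score N (under 10 reads in the tables that print them) in each library. The other comparable exons, of 302, 326, 79 and 73 nt, stayed within 1 PSI of 0 or 100 in every library.

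Splice site 4 of Nrxn3, the exon printed above, was read too thinly to compare. Its score was N (under 10 reads in the tables that print them) in every library. The listed PSI were 50, 81.8, 100 and 100. The reads of the gene, between 23 and 144 per library, do not allow a statement on its splicing. The site A exon of Nlgn2, of 51 nt, was at 84.0, 77.5, 81.8 and 81.5 PSI, with the score VLOW in siArglu1 Veh. The differences of -2.18 PSI in vehicle and 4.04 in Dex were small beside an interval of 70.2 to 94.3 at 40 reads for siControl Veh. Nlgn2 was thus lower in level in the siArglu1 libraries, while no difference was seen in the inclusion of its site A exon at this depth.

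Partners of these genes were described from lists of their ligands and scaffolds. Of 25 compared partners of neurexins and neuroligins, 2 were higher and 8 lower for knockdown in vehicle, with a median log2 ratio of -0.47 against 0.00 over all genes, and 2 were higher and 1 lower in Dex, with a median of -0.28. Over all genes compared, 875 were higher and 1096 lower in vehicle and 773 higher and 741 lower in Dex, which are the 15.8% and 12.1% given above. With the trend on length removed, none of these partners was lower past the threshold in either pair, 2 were higher in each, and the medians were -0.24 and -0.10. Lrrtm3, a postsynaptic ligand of neurexins, was higher in both pairs, with 18 and 20 reads in siControl Veh and siControl Dex against 59 and 110 in siArglu1 Veh and siArglu1 Dex (log2 ratio 1.69 in vehicle and 2.12 in Dex). Dlg2, a scaffold that binds the neuroligin tail, was higher as well (0.91 and 0.93). Of 26 compared partners of LAR phosphatases, 2 were higher and 4 lower in vehicle, and 2 higher and 3 lower in Dex, with medians of -0.04 and 0.18. With the trend removed, 3 were higher and 2 lower in vehicle and 2 higher and 3 lower in Dex, with medians of 0.20 and 0.43. Sdc3, a heparan sulfate proteoglycan, had 2710 and 2539 reads in the siControl libraries against 7352 and 10330 in the siArglu1 libraries (1.46 and 1.74). Gpc2, another such proteoglycan, passed as well at 12 to 34 reads (1.46 and 0.81), and its interval in Dex included 0. Without the trend on length its ratio in Dex was 0.79, short of the threshold. Il1rap, a postsynaptic ligand of the LAR phosphatases, was lower (-1.07 and -1.04), and so was Ppfia2 (-1.03 and -0.99), a liprin-α scaffold that binds their intracellular part, although Ppfia2 was at -0.69 in vehicle without the trend on length. Of 11 other receptor phosphatases, 3 were lower in both pairs, with Ptprb (-2.01 and -1.57) and Ptprr (-1.51 and -1.51) the lowest, and none was higher in both. Of all genes compared, 9.89% were past the threshold on the same side for both knockdown pairs.

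Of 15 compared regulators of neuronal exons, 2 were lower in both knockdown pairs and none was higher, a share near that background. Their median log2 ratio, however, was -0.52 in vehicle and -0.45 in Dex, against 0.00 over all genes. With the trend on length removed, the medians were -0.34 and -0.44, with 2 lower past the threshold in vehicle and 3 in Dex. Ptbp2, which represses neuronal exons early in differentiation, had 15690 and 16547 reads in the siControl libraries against 4671 and 5972 in the siArglu1 libraries, which is -1.73 (vehicle) and -1.76 (Dex) on the log2 scale. Mbnl2 was lower by a smaller step (-1.31 and -1.16). Khdrbs1, known as a regulator of splice site 4 of neurexins, had log2 ratios of -0.06 and -0.18, Ptbp1 of -0.22 and -0.15, and Srrm4, the activator of neuronal microexons, of -0.28 and 0.12. None of these 3 passed the threshold, and without the trend on length the vehicle ratios of Khdrbs1 (0.06) and Srrm4 (0.14) were above 0. Events in the partners and regulators that passed 15 PSI in both knockdown pairs numbered 3 of 136 for partners of neurexins and neuroligins, 6 of 207 for partners of LAR phosphatases, 0 of 44 for other receptor phosphatases and 3 of 93 for exon regulators, against 0.547% of all events. Those named next were chosen after their values were seen. Among exon regulators, a 34-nt exon of Ptbp2 was less included after knockdown, by -28.2 PSI in vehicle and -45.2 in Dex, with SOK in all libraries. A 54-nt exon of Mbnl1 was less included too (-25.2 and -15.8). A 56-nt exon of Khdrbs1 was more included (15.7 and 20.6), at scores of only VLOW to OK. Among partners of neurexins and neuroligins, a 3′ splice site of Cask, a scaffold that binds the neurexin tail, went from 12.2 and 16.7 PSI in the siControl libraries to 51.9 and 48.8 in the siArglu1 libraries, and a 172-nt exon of Cntnap1 from 55.8 and 56.8 to 87.9 and 77.05. A 12-nt microexon of Lphn2, a latrophilin, went from 39.6 and 42.2 PSI in the siControl libraries to 5.15 and 3.88 in the siArglu1 libraries, and a 12-nt microexon of Agrn, the proteoglycan agrin, from 31.0 and 34.3 to 9.03 and 8.22. Exons of 27 nt in the liprins Ppfia1 (47.9 and 42.4 to 20.7 and 25.3) and Ppfia3 (68.1 and 71.3 to 48.1 and 36.3) were less included as well, and a 33-nt exon of Ppfibp1 was more included (8.28 and 9.27 to 29.1 and 29.7).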

How the data were processed

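The authors pooled mRNA of N2a cells from 3 cultures per group, made 1 TruSeq V2 library from each pool and sequenced it on an Illumina HiSeq2500. The submitters' processing notes name Bowtie and the mm9 build; for the versions and the annotation, nothing is given in the sources used here. Deposited was, for each gene, the raw count of reads in every library; blanks were taken as 0. Beside it stands the RPKM that the authors corrected for mappable positions (cRPKM). It also has 2 unnamed columns with the authors' ratios of cRPKM, Dex over vehicle, which were not used. The 3 deposited splicing tables, made with vast-tools, hold the PSI as a percent from 0 to 100, with coverage scores in words and, for alternative 3′ and 5′ splice sites, junction reads. What a score means in reads was taken from the latter tables. Cassette events print no reads, so for them these ranges are an assumption.

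Reads were scaled with TMM factors of edgeR 4.0.16 (R 4.3.3), and log2 values were taken with a prior count of 1, for genes with at least 75 reads over the 4 libraries. Thresholds were 0.81 for knockdown, 1 for Dex and 15 PSI. Exact 95% intervals of ratios were conditional on the summed reads of a pair of libraries, those of PSI were Clopper-Pearson intervals, and both cover counting error only, because reads without molecular identifiers are not independent molecules. The additive edgeR quasi-likelihood model has 1 residual degree of freedom, and DESeq2 1.42.0 was an alternative. The trend on mappable length, from reads over cRPKM, was removed with a lowess (statsmodels 0.14.6, span 0.3, 3 iterations). Scripts were tested on simulated data.

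Sequences came from GENCODE M21 transcripts on GRCm38, and mm9 coordinates from the splicing tables; neither was converted. Exons were aligned with Biopython 1.88. Named were all 8 genes, every comparable event of theirs past 15 PSI in any pair, every comparable microexon, and every comparable cassette exon of at most 100 nt with a PSI between 5 and 95 in some library. From each list, the 2 highest and 2 lowest genes past 0.81 in both knockdown pairs were named, with Khdrbs1, Ptbp1, Ptbp2 and Srrm4. The members and lists were chosen with earlier results of these data known. Some genes and 1 exon sequence are not reported here.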

Additional observations from a re-analysis of the deposited data

Results flagged for a closer look

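For Nrxn2 and Nlgn2, the ratio of Dex over vehicle pointed in opposite directions in the siControl and siArglu1 cells, with counting intervals that left out 0 on both sides. The log2 ratio of Nrxn2 was -0.184 in siControl and 0.110 in siArglu1, and that of Nlgn2 was -0.0901 in siControl and 0.0906 in siArglu1. There is 1 library on each side, and the difference between the effects was not tested. Across genes, the trend of this ratio on transcript length was negative in siControl (Spearman's rho of -0.16) and positive in siArglu1 (0.54). With that trend removed, the ratios were -0.15 and -0.03 for Nrxn2, and -0.07 and -0.01 for Nlgn2, in siControl and siArglu1.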

How the results depend on the processing

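No paired analysis was possible because each group has 1 pooled library and the columns share 1 replicate number. The direction of Nrxn3 and its place past the threshold held in both knockdown pairs under every alternative run. On the log2 cRPKM as deposited, with a pseudocount of 0.1, its ratio was -1.69 in vehicle and -1.37 in Dex, and on reads it also passed a stricter size of 1.5 in both pairs. Without a minimum of reads, 2 of the 8 genes passed for knockdown in vehicle, 2 for knockdown in Dex and 2 for Dex in siControl, where those other than Nrxn3 had 10 reads or fewer in all. The vehicle ratio of Ptprf, 0.02, was -0.02 when scaled by total reads or taken from cRPKM.

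The counts of member events past the threshold depended on coverage. Where a score of at least OK was asked of every library, 1 event passed for knockdown in vehicle, 1 for knockdown in Dex, 0 for Dex in siControl and 0 for Dex in siArglu1. With no coverage minimum, these counts were 7, 8, 6 and 2. At 10 PSI they were 2 for Dex in siControl and 4 for Dex in siArglu1, and at 25 PSI they were 0 for knockdown in vehicle, 2 for knockdown in Dex, 0 for Dex in siControl and 0 for Dex in siArglu1. Without complex or unbalanced cassette events, 1 passed for knockdown in vehicle, 1 for knockdown in Dex and 0 for Dex in siControl. The cause was not tested. DESeq2's Wald test and DESeq2 size factors in the edgeR model each called 3 of the 6 genes, as did the additive model. The adjusted p of DESeq2's Wald test was larger, at 3.99e-07 for Nrxn3, 0.000294 for Nlgn2 and 0.0465 for Ptprs, the last just under 0.05. Removing the length trend from the ratios of the partner and regulator lists, an alternative chosen after seeing the data, left 2 of 10 partners of neurexins and neuroligins past the threshold in vehicle and 2 of 4 other receptor phosphatases in Dex, and moved the other 6 counts by at most 1 gene. Depth limits the events of Nrxn3, Nlgn1, Nlgn3 and Ptprd, none of which could be compared.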
